A study of Mus musculus with 60 samples.

Results

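Methylation of cytosine in DNA is written, oxidized and removed by a small set of enzymes, and 10 genes of this machinery were followed in the mouse dentate gyrus (DG), the part of the hippocampus that keeps making granule neurons in adult life. They were listed by function, with earlier results of these data known. The list held the DNA methyltransferases *Dnmt1*, *Dnmt3a* and *Dnmt3b*, the dioxygenases *Tet1*, *Tet2* and *Tet3*, the stress- and activity-responsive genes *Gadd45a*, *Gadd45b* and *Gadd45g*, and the glycosylase *Tdg*. They are 10 of the 46480 genes with counts, and all 10 passed the filter on low values (over 10 counts in 2 or more samples), which left 17040 genes to test.

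RNA-Seq was made from tissue punches of dorsal and ventral DG of male C57BL6J mice. The mice were weaned on day 22 and then lived for 8 weeks either in standard housing (SH), with 3 mice in a cage, or in an enriched environment (EE), with 12 mice in a larger cage holding running wheels and objects that were changed each week. All were collected at 80 days of age. Each sample pooled punches from several mice, and the study paired dorsal and ventral samples of the same mice. Here samples with the same replicate number and housing were taken to come from the same pool, which the labels do not state. The values below rest on 18 samples from 9 pools, with 4 samples each in dorsal SH and ventral SH and 5 each in dorsal EE and ventral EE. SH replicate 3 was left out in both regions. Its libraries held 308 and 789 counts of *Xist*, an RNA of female cells, against 0 to 16 in the other 18, and the study left out an SH sample for this reason.

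In the genome, methyl groups sit mostly on cytosines of CG dinucleotides, and in mature neurons also on other cytosines. Dnmt1 copies the marks of CG sites to the new strand after replication, whereas Dnmt3a and Dnmt3b set marks on unmethylated DNA, and Dnmt3a is the main writer in neurons after birth. Tet enzymes oxidize methylcytosine to hydroxymethylcytosine and further, Tdg cuts the most oxidized bases out so that base excision repair can place an unmodified cytosine, and Gadd45 proteins bind the demethylation and repair machinery without being enzymes themselves. *Gadd45b* and *Gadd45g* are known as genes that neuronal activity induces.

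Depth was similar across the libraries, with 22919364 to 28301861 fragments counted on genes per sample. Values compared between samples are CPM, counts divided by library size after TMM scaling, which sets the libraries to a common scale from genes that change little. Values compared between genes are FPKM, which is divided by transcript length. TPM was not used between samples because 7SL RNA, a short abundant non-coding RNA, took 39.4% to 55.3% of all TPM. Differences were tested with the quasi-likelihood test of edgeR over all 17040 genes, with the p-value adjusted by the Benjamini-Hochberg method, and a gene was called at an adjusted p under 0.05. All 6 granule cell markers that were checked, *Prox1* and *C1ql2* among them, were detected in each region, so the labelled tissue was present in both.

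The promoters of the 3 *Gadd45* genes and of *Tdg* are shown because these are the members for which housing was of interest and because they differ in layout. Each sequence runs from 250 bases before to 50 bases after the annotated start on GRCm38 (RefSeq, GRCm38.p6), and capitals mark matches on either strand to 5 motifs. These were TATAAA of the TATA box and, as the CCAAT box, the letters CCAAT. The cyclic AMP response element (CRE) was read as TGACGTCA, and its shorter form, TGACG, lies within it. The AP-1 motif was searched for as TGANTCA, where N is any base.
Gadd45a (chr6:67037358-67037657, minus strand): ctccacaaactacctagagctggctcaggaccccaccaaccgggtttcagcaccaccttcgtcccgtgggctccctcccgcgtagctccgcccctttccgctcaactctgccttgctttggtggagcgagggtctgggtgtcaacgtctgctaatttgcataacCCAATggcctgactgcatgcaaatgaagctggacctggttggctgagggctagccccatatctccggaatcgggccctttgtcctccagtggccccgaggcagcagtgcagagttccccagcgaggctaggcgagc
Gadd45b (chr10:80929841-80930140, plus strand): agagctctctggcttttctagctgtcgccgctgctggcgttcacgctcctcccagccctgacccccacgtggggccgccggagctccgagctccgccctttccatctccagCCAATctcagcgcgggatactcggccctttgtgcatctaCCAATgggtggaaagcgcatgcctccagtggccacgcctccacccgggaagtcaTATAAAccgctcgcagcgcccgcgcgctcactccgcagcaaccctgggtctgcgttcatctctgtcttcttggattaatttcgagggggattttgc
Gadd45g (chr13:51846425-51846724, plus strand): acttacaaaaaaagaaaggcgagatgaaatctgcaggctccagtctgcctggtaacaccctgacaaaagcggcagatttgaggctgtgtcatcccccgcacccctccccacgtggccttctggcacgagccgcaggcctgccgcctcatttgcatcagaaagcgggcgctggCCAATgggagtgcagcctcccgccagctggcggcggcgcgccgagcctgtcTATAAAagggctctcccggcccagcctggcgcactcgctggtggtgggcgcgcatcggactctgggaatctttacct
Tdg (chr10:82629588-82629887, plus strand): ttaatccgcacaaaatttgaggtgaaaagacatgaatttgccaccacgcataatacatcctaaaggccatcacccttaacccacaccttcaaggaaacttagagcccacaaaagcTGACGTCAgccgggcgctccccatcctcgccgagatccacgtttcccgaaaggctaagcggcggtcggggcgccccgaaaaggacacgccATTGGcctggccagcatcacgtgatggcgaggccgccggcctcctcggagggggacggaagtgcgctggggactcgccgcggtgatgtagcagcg

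*Gadd45b* and *Gadd45g* each held a TATAAA, at -46 and -27 from the start, and neither *Gadd45a* nor *Tdg* did. Over 32851 RefSeq promoters of the same length, 13.6% held it. Each of the 4 promoters held a CCAAT on one strand or the other, as did 37.4% of all promoters. The full CRE occurred only in *Tdg* among these 4, at -135, and in 1.79% of all promoters. TGACG occurred there too and in no other of the 4, against 20.8% of all promoters. The AP-1 motif, held by 7.81% of all promoters, occurred in none of the 4. Of the motifs also searched but left in lower case, the E-box CACGTG occurred in *Gadd45b*, *Gadd45g* and *Tdg* and in 7.15% of all promoters. The E-box CAGATG (17.2% of all promoters) and the CArG box (1.63%) occurred in none of the 4. The windows held 14 CG sites in *Gadd45a*, 24 in *Gadd45b*, 21 in *Gadd45g* and 26 in *Tdg*, against a median of 7 over all promoters. These are matches of letters and not measured binding sites.

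The first question was how abundant each gene was. By median FPKM over the 18 samples, the order ran from *Gadd45g* (12.9, range 9.98 to 15.8) and *Tdg* (11.7, range 8.46 to 15.4) through *Dnmt3a* (10.3, range 8 to 11.9), *Dnmt1* (7.67, range 5.54 to 9.27) and *Gadd45b* (7.43, range 4.95 to 10.7). Then came *Tet3* (3.95), *Tet2* (3.71), *Tet1* (3.25) and *Gadd45a* (3.12), and *Dnmt3b* came last at 0.19 (range 0.07 to 0.36). *Dnmt3a* was above *Dnmt1* in 18 of 18 samples, and *Gadd45a* was above *Dnmt3b* in 18 of 18. Other neighbours were not separated in every sample. *Gadd45g* was above *Tdg* in 12 of 18, *Tdg* above *Dnmt3a* in 14, *Dnmt1* above *Gadd45b* in 9, *Tet3* above *Tet2* in 13 and *Tet1* above *Gadd45a* in 6. *Tdg* is placed here by a count that shares out fragments matching several genes, and it is lower by uniquely mapped fragments, as given below. TPM gave the same order except that *Gadd45a* stood above *Tet1*.

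**Figure D1:**
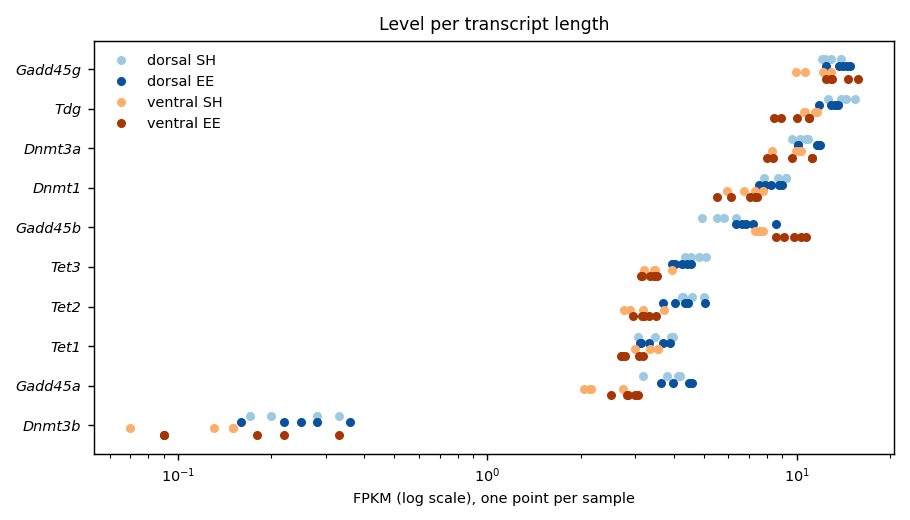
FPKM (log scale) of the 10 genes, one point per sample, coloured by region and housing. *Gadd45g* and *Tdg* had the highest medians, at 12.9 and 11.7, and *Dnmt3b* lay below 0.4 in every sample.

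Region was compared next, as the mean over both housings of dorsal minus ventral DG. Of the 10 genes, 9 were called, where 58.4% of all tested genes were called. Dorsal DG had the higher level for 8 of these and ventral DG for 1, *Gadd45b*, against 29% and 29.3% of all tested genes. *Gadd45g* was the gene not called. With a fold change over 20% as well, 7 were dorsal-higher and 1 ventral-higher, against 15.9% and 16.8% of all tested genes. The median log2 difference was 0.28 over the 10 genes and 0.00 over all tested genes. For 6 genes the 9 dorsal samples did not overlap the 9 ventral samples, where 18.9% of all tested genes showed no overlap. Within SH alone 8 genes were called, against 41.7% of all tested genes, and within EE alone 8 as well, against 46.5%. The study had already named *Dnmt1*, *Dnmt3a*, *Dnmt3b*, *Tet1*, *Tet2*, *Tet3* and *Gadd45a* as higher in dorsal DG in these same data. The counts here are therefore no independent support for a dorsal excess of the list. In tissue of mixed cells, fewer cells of a type and less RNA per cell cannot be told apart.

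**Figure D2:**
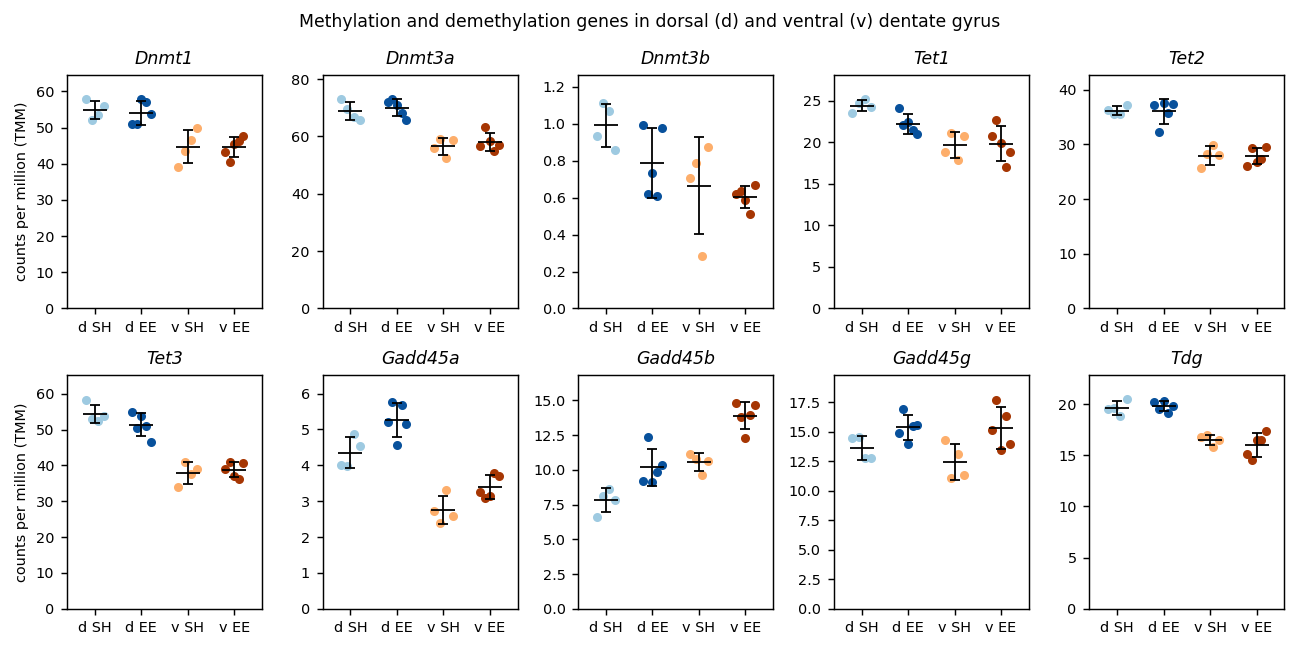
CPM after TMM scaling for the 10 genes in dorsal (d) and ventral (v) DG of SH and EE mice, one point per sample, with the mean and SD of each group in black and each axis starting at 0. *Gadd45b* was higher in ventral DG and in EE, and most other genes were higher in dorsal DG.

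*Dnmt1*, which keeps CG methylation through cell division, had 57.8, 52.1, 53.5 and 55.9 CPM in dorsal SH and 50.9, 50.96, 57.9, 57.1 and 53.7 CPM in dorsal EE. In ventral SH it had 39.1, 43.7, 46.4 and 49.8 CPM, and in ventral EE 43.2, 40.4, 45.5, 46.3 and 47.7 CPM. Every dorsal sample was above every ventral sample. The log2 difference between regions was 0.29 (SE 0.045, edgeR adjusted p = 1.05e-05), which is 21.9% more in dorsal DG.

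*Dnmt3a*, the main writer of methylation in neurons, had 73.1, 69.7, 66.9 and 65.9 CPM in dorsal SH and 71.9, 73.1, 70.9, 68.1 and 65.8 CPM in dorsal EE. It had 56.0, 58.9, 52.6 and 58.8 CPM in ventral SH and 56.6, 63.2, 58.2, 55.0 and 57.1 CPM in ventral EE. The regions did not overlap. The difference was 0.28 on the log2 scale (SE 0.035, edgeR adjusted p = 6.23e-07). By FPKM the regions did overlap, and the adjusted p was 0.0868 with limma on log2(FPKM + 1). The mean transcript length that the authors' isoform estimate gave to *Dnmt3a* ranged from 4415 to 6086 bases between samples, so its length-scaled values also carry that estimate.

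*Dnmt3b*, the other writer, was near the limit of detection, with 7 to 28 counts per sample. It had 0.932, 1.11, 1.07 and 0.856 CPM in dorsal SH, 0.994, 0.621, 0.732, 0.612 and 0.979 in dorsal EE, 0.706, 0.789, 0.284 and 0.877 in ventral SH, and 0.621, 0.634, 0.588, 0.512 and 0.667 in ventral EE. The regions overlapped, and 7 of 9 pools were higher in dorsal DG. The log2 difference was 0.47 (SE 0.17, edgeR adjusted p = 0.0193). This call was lost without SH replicate 4 (adjusted p = 0.0607), whose ventral library had the lowest value, without EE replicate 1 (adjusted p = 0.0533), and with all 20 samples (adjusted p = 0.0714).

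The oxidizing enzymes followed the same direction. *Tet3* differed most, with 58.1, 53.1, 52.4 and 53.7 CPM in dorsal SH, 54.9, 50.5, 53.7, 51.1 and 46.6 in dorsal EE, 34.0, 41.1, 37.5 and 39.0 in ventral SH, and 39.0, 40.9, 37.0, 36.3 and 40.7 in ventral EE. No ventral sample reached the lowest dorsal sample. The regional difference of *Tet3* was 0.46 on the log2 scale (SE 0.041, edgeR adjusted p = 2.5e-09), or 37.8% more in dorsal DG.

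*Tet2* had 36.3, 35.6, 35.5 and 37.2 CPM in dorsal SH and 37.2, 32.2, 37.5, 35.8 and 37.3 in dorsal EE, against 25.6, 28.3, 29.9 and 28.0 in ventral SH and 26.1, 29.3, 26.8, 27.4 and 29.5 in ventral EE. These did not overlap between regions, and the log2 difference was 0.37 (SE 0.039, edgeR adjusted p = 3.01e-08). *Tet1* had 23.6, 24.7, 25.2 and 24.3 CPM in dorsal SH, 24.1, 22.0, 22.5, 21.4 and 20.98 in dorsal EE, 18.8, 21.1, 17.9 and 20.8 in ventral SH, and 20.7, 22.6, 19.9, 17.1 and 18.9 in ventral EE. Its regions overlapped, since ventral EE replicate 2 exceeded several dorsal samples, and its log2 difference was 0.24 (SE 0.049, edgeR adjusted p = 0.000216). Within SH the *Tet1* difference was 0.31 (adjusted p = 0.00134) and within EE 0.16 (adjusted p = 0.0424). The change of the regional difference with housing was not called for *Tet1*, at -0.15 on the log2 scale (95% interval -0.35 to 0.05).

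*Gadd45a*, the member of its family best known as a DNA damage response gene, had the largest dorsal excess of the 10 in this fit. It had 4.02, 3.99, 4.87 and 4.54 CPM in dorsal SH and 5.19, 5.76, 4.55, 5.67 and 5.14 in dorsal EE, against 2.72, 2.40, 3.32 and 2.59 in ventral SH and 3.26, 3.08, 3.13, 3.78 and 3.70 in ventral EE. No ventral sample reached a dorsal one. On the log2 scale the difference was 0.64 (SE 0.076, edgeR adjusted p = 2.38e-07), or 56.2% more in dorsal DG.

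*Gadd45b* ran the other way. It had 6.63, 8.14, 8.63 and 7.82 CPM in dorsal SH, 9.21, 12.4, 9.15, 9.87 and 10.3 in dorsal EE, 11.1, 10.8, 9.64 and 10.7 in ventral SH, and 14.8, 13.8, 12.3, 13.9 and 14.7 in ventral EE. Ventral was above dorsal in all 9 pools, and the regions did not overlap within SH. Across housings they did overlap, because dorsal EE reached the level of ventral SH, and within EE 1 dorsal sample at 12.4 CPM was above the lowest ventral sample at 12.3 CPM. Dorsal minus ventral, the log2 difference was -0.45 (SE 0.063, edgeR adjusted p = 2.92e-06), or 26.6% less in dorsal DG.

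*Gadd45g*, the third of the family, had 14.5, 14.6, 12.8 and 12.8 CPM in dorsal SH, 14.9, 16.9, 13.99, 15.5 and 15.6 in dorsal EE, 14.3, 11.1, 13.1 and 11.4 in ventral SH, and 15.2, 17.7, 13.4, 16.4 and 13.97 in ventral EE. The regions overlapped, and 5 of 9 pools were higher in dorsal DG. The log2 difference was 0.07 (95% interval -0.06 to 0.20, edgeR adjusted p = 0.343), so a regional difference beyond 0.20 on the log2 scale lay outside the interval.

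*Tdg*, which removes oxidized cytosine, had 19.5, 19.6, 18.9 and 20.5 CPM in dorsal SH and 20.2, 19.5, 20.3, 19.2 and 19.8 in dorsal EE, against 16.8, 16.9, 15.8 and 16.5 in ventral SH and 15.1, 14.5, 16.5, 16.5 and 17.4 in ventral EE. The regions did not overlap, and all 9 pools were higher in dorsal DG. The log2 difference was 0.28 (SE 0.038, edgeR adjusted p = 1.9e-06), or 21.3% more in dorsal DG.

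**Figure D3:**
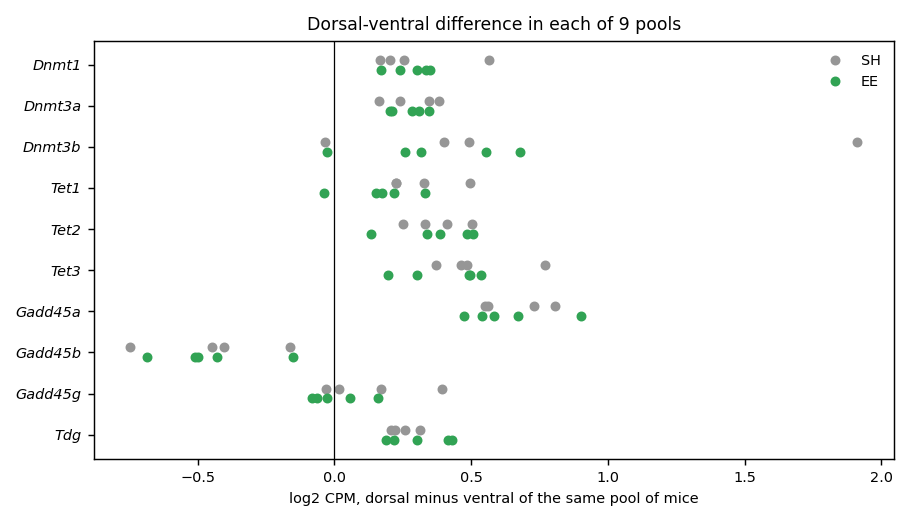
Log2 CPM of dorsal minus ventral DG within each of the 9 pools of mice, paired by replicate number and housing, grey for SH and green for EE. *Dnmt1*, *Dnmt3a*, *Tet2*, *Tet3*, *Gadd45a* and *Tdg* lay above 0 in 9 of 9 pools, *Tet1* in 8, *Dnmt3b* in 7, *Gadd45g* in 5 and *Gadd45b* in 0.

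Sequence copies and overlapping genes bear on *Tdg* and *Gadd45a*. *Tdg* on chromosome 10 (GRCm38 chr10:82629828-82650799) has near-copies among the annotated sequences of Gencode. Of these, *Tdg-ps*, *Gm9855* and *Gm5597* matched its longest transcript at 98.7%, 99.2% and 99.3% identity over 2968, 1194 and 1193 bases. The uniquely mapped counts used above left fragments shared with such copies out, with 0 to 1 counts on each copy. The authors' expected counts, which share such fragments out, came to 182% of the unique counts of *Tdg*, against 82.8% to 95.9% for the other 9 genes. With expected counts the regional difference of *Tdg* was 0.30 (edgeR adjusted p = 9.58e-08). *Tdg* also shares 367 exon bases with *Glt8d2* on the opposite strand, and 83.1% of the stranded counts at *Tdg* lay on its own strand.

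*Gadd45a* (chr6:67035096-67037457) shares 337 bases, 19.1% of its exon sequence, with *E230016M11Rik* on the opposite strand. Counted without strand, where fragments in the overlap were lost, it kept 67.0% of its counts, and its regional difference was 0.66 (edgeR adjusted p = 3.68e-06). The other 8 genes had at least 99.3% of their stranded counts on their own strand.

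Cell type markers moved with region too, to be read against the 29% of all tested genes that were dorsal-higher and the 29.3% that were ventral-higher. All 6 granule cell markers were higher in dorsal DG, and their summed level was 1199 to 1463 CPM in dorsal and 603 to 874 CPM in ventral samples. Of the dividing cell markers 3 of 6 were higher in dorsal DG, with a sum of 14.1 to 17.0 CPM against 9.97 to 12.1 CPM. All 6 choroid plexus markers were higher in ventral DG, with a sum of 23.1 to 208.5 CPM in dorsal and 387 to 1417 CPM in ventral samples, and 4 of 6 radial glia and astrocyte markers were higher there, with a sum of 2253 to 2753 CPM against 2705 to 3704 CPM. Of the immature neuron markers 5 of 6 were higher in dorsal DG and 1, *Calb2*, was higher in ventral DG. Their sum was 132.4 to 143.8 CPM in dorsal and 131.3 to 194.6 CPM in ventral samples. Interneuron markers split, with 1 of 6 higher in dorsal and 3 in ventral DG, and so did CA pyramidal markers, with 3 each. Oligodendrocyte and endothelial markers each had 1 of 6 higher in dorsal DG, and of the microglia markers 0 of 6 were called. The part of these markers in the regional differences of the methylation genes was not tested. In ventral EE replicates 1 to 5, the choroid plexus sums were 563, 415, 1417, 921 and 802 CPM. *Gadd45b* there was 14.8, 13.8, 12.3, 13.9 and 14.7 CPM. In ventral SH replicates 1, 2, 4 and 5, the sums were 387, 576, 604 and 1093 CPM, and *Gadd45b* was 11.1, 10.8, 9.64 and 10.7 CPM.

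Housing was compared within each region as EE minus SH. In dorsal DG 0 of the 10 genes were called by edgeR, where 0.716% of all tested genes were called. Of the 10, 2 had an unadjusted p under 0.05, against 8.81% of all tested genes, and DESeq2 called 1. In ventral DG 0 were called as well, where 0.246% of all tested genes were called. There 3 had an unadjusted p under 0.05, against 7.58% of all tested genes, and DESeq2 called 1. As the mean over both regions, 1 gene was called, *Gadd45b*, where 1.8% of all tested genes were called. The fit had no term for pools, so both regions of a pool counted as separate samples. The p-values, SEs and intervals of the mean EE differences do not allow for this. With counts of both regions summed per pool, 1 of the 10 was called, and 143 of 18182 tested genes were called, against 306 of 17040 in the reported fit. A difference of the EE effect between regions was called for 0 of 10 genes by edgeR, where 0.00587% of all tested genes were called, and DESeq2 called 0 as well. Of the 10, 0 had an unadjusted p under 0.05 for that difference, against 3.25% of all tested genes.

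**Figure D4:**
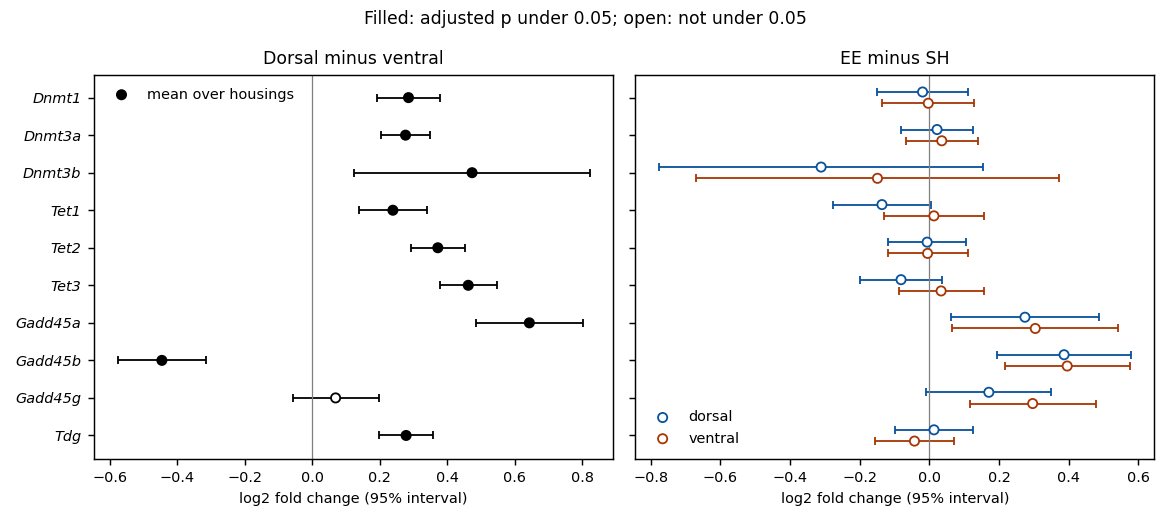
Log2 fold change and 95% interval of the 10 genes for dorsal minus ventral DG (left) and for EE minus SH in dorsal and ventral DG (right), filled where the adjusted p was under 0.05. All filled points are on the left, where *Gadd45b* lies at -0.45 and *Gadd45a* at 0.64. On the right the *Gadd45* genes lie furthest above 0, although on log2(TPM + 1), which moved the median of all genes by -0.17 in dorsal DG, the dorsal values of *Gadd45a* and *Gadd45g* were below 0.

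For *Gadd45b* the EE values given above lay over the SH values in both regions. In dorsal DG the mean was 7.81 ± 0.849 CPM (SD, n = 4) in SH and 10.2 ± 1.32 CPM (SD, n = 5) in EE, and in ventral DG it was 10.6 ± 0.637 CPM (SD, n = 4) and 13.9 ± 0.994 CPM (SD, n = 5). All 5 EE samples were above all 4 SH samples in each region, which held for 1 of the 10 genes, where 3.99% of all tested genes in dorsal and 2.45% in ventral DG showed no overlap. EE minus SH was 0.39 on the log2 scale in dorsal (95% interval 0.19 to 0.58, edgeR adjusted p = 0.0521) and 0.40 in ventral DG (95% interval 0.22 to 0.57, edgeR adjusted p = 0.0504), both just short of the threshold. The mean over regions was 0.39 (SE 0.063, edgeR adjusted p = 0.00101), a rise of 31.1%. On the log2(TPM + 1) scale with limma this call was lost, at 0.15 (adjusted p = 0.25). The difference between the regions' EE effects was -0.01 (95% interval -0.27 to 0.26). Within a region the call turned on the setting. In dorsal DG it passed without EE replicate 1 (adjusted p = 0.0499) or EE replicate 3 (0.0398), and in ventral DG without EE replicate 2 (0.0252) or EE replicate 3 (0.0428). The study had already reported *Gadd45b* as raised by EE in both regions of these same data, with a rise of similar size. The rise given here is therefore no independent support, and in the reported fit neither region alone was called.

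*Gadd45g* had means of 13.7 ± 1.00 CPM (SD, n = 4) in dorsal SH and 15.4 ± 1.08 CPM (SD, n = 5) in dorsal EE, and of 12.5 ± 1.52 CPM (SD, n = 4) in ventral SH and 15.3 ± 1.75 CPM (SD, n = 5) in ventral EE. Of the 5 EE samples, 4 in dorsal and 3 in ventral DG were above all SH samples of their region. EE minus SH was 0.17 in dorsal (95% interval -0.01 to 0.35, edgeR adjusted p = 0.602) and 0.30 in ventral DG (95% interval 0.12 to 0.48, edgeR adjusted p = 0.257) on the log2 scale. The mean over regions was 0.23 (SE 0.061, edgeR adjusted p = 0.0514), which was not called. Counting this reported fit there were 22 settings. It was called in 11 of the 22, among them without SH replicate 1 (adjusted p = 0.0225) or EE replicate 3 (0.0283).

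*Gadd45a* had 4.35 ± 0.427 CPM (SD, n = 4) in dorsal SH, 5.26 ± 0.483 CPM (SD, n = 5) in dorsal EE, 2.76 ± 0.397 CPM (SD, n = 4) in ventral SH and 3.39 ± 0.328 CPM (SD, n = 5) in ventral EE. In dorsal DG 4 of 5 EE samples and in ventral DG 2 of 5 were above all SH samples. Its mean EE difference was 0.29 on the log2 scale (SE 0.077, edgeR adjusted p = 0.0537), with 0.27 in dorsal and 0.30 in ventral DG. On the log2(TPM + 1) scale, where the median of all genes moved by -0.17, the dorsal differences of *Gadd45a* and *Gadd45g* were -0.041 and -0.075. The mean difference of *Gadd45a* was called in 6 of 22 settings, among them without SH replicate 4 (adjusted p = 0.0211) or EE replicate 3 (0.0434).

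By uniquely mapped counts, *Tdg* differed little with housing. Its means were 19.6 ± 0.658 CPM (SD, n = 4) in dorsal SH and 19.8 ± 0.477 CPM (SD, n = 5) in dorsal EE, and 16.5 ± 0.521 CPM (SD, n = 4) in ventral SH and 15.99 ± 1.16 CPM (SD, n = 5) in ventral EE. The samples of the housings overlapped in both regions. EE minus SH was 0.01 on the log2 scale in dorsal (95% interval -0.10 to 0.12) and -0.04 in ventral DG (95% interval -0.16 to 0.07), with a mean of -0.01 (95% interval -0.09 to 0.06, edgeR adjusted p = 0.912).

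For the writers and oxidizers, the mean EE difference was -0.01 for *Dnmt1* (95% interval -0.10 to 0.08), 0.03 for *Dnmt3a* (95% interval -0.04 to 0.10), -0.06 for *Tet1* (95% interval -0.16 to 0.04), -0.01 for *Tet2* (95% interval -0.09 to 0.07) and -0.02 for *Tet3* (95% interval -0.11 to 0.06) on the log2 scale. None of these was called, and a mean housing difference beyond these bounds lay outside the intervals. The bounds do not hold for 1 region alone. *Tet1* had means of 24.4 CPM in dorsal SH and 22.2 CPM in dorsal EE, and of 19.6 and 19.8 CPM in ventral DG. Without one pool at a time, its dorsal difference ran from -0.17 to -0.11 and was not called. For *Dnmt3b* the interval was wide, at -0.23 (95% interval -0.58 to 0.12), with 7 to 28 counts per sample.

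**Figure D5:**
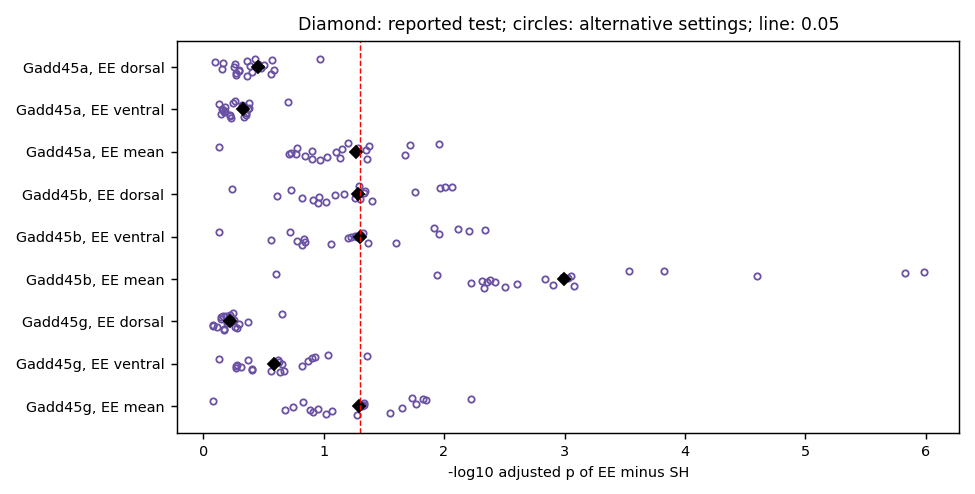
Adjusted p (as -log10) of EE minus SH for the 3 *Gadd45* genes in dorsal DG, ventral DG and as the mean of both, with the reported test as a diamond and each alternative setting as a circle. The dashed line marks 0.05, and the reported *Gadd45b* mean lies at 0.00101.

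Genes known to follow neuronal activity were read beside the *Gadd45* genes. Of 12 such genes, 5 rose with EE in dorsal, 7 in ventral DG and 9 as the mean of both, where 0.716%, 0.246% and 1.8% of all tested genes were called in either direction. None fell, and the median log2 difference was 0.42 for the mean against 0.00 over all tested genes. The study had already reported *Junb*, *Arc*, *Fos*, *Fosb* and *Npas4* as raised by EE in these same data. These counts are therefore not independent of how the list was chosen. *Npas4*, a transcription factor induced by synaptic activity, rose by 1.27 (SE 0.12, edgeR adjusted p = 1.82e-06) in dorsal and 1.65 (SE 0.15, edgeR adjusted p = 3.01e-06) in ventral DG on the log2 scale. *Fos* rose by 0.76 and 1.26, and *Fosb* by 0.67 and 1.05. *Egr2* rose by 1.16 as the mean of both regions. Between regions, 10 of the 12 were higher in dorsal and 2, *Nr4a3* and *Dusp1*, higher in ventral DG, against 29% and 29.3% of all tested genes, whereas *Gadd45b* was higher in ventral DG. Of all the marker lists, only *P2ry12* of microglia (dorsal and mean, by -0.23 and -0.18) and *Hes5* of radial glia (mean, by -0.29) were called for housing.

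By Pearson correlation of log2 CPM over the 18 samples, centred within region, the genes most like *Gadd45b* among the 17040 were *Npas4* (0.88), *Bok* (0.86) and *Ch25h* (0.86). For *Gadd45g* they were *Plekha5* (0.89), *Bok* (0.88) and *Dexi* (0.86), and for *Tdg* they were *Card6* (0.82), *Gm42440* (0.80) and *Heyl* (0.80). These values include the housing difference, which all samples of a housing share, and both regions of a pool were taken to share their mice. Among the 10 genes themselves, the correlations within groups ran from -0.64 (*Dnmt3a* with *Gadd45a*) to 0.69 (*Dnmt3a* with *Tet1*) over 45 pairs, with a median of -0.04.

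The genes that serve these enzymes were counted in the same fit. Of 12 tested genes for partners and recruiters of the methyltransferases, 5 were dorsal-higher and 2 ventral-higher, against 29% and 29.3% of all tested genes, with a median log2 difference of 0.12. *Setd2* (0.46) and *Nsd1* (0.41), which write histone marks that Dnmt3 enzymes read, were higher in dorsal DG. *Zfp57* (-0.48), which keeps imprints methylated, was higher in ventral DG. The other ventral-higher call was *Dnmt3l*, a Dnmt3 cofactor without activity of its own, with 1 to 14 counts per sample. It passed the filter on low values only through ventral EE, the group where it was highest, so no fold is given and its call supports nothing.

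Of 10 tested genes of methyl donor supply, 5 were dorsal-higher and 1 ventral-higher, beside the same 29% and 29.3%, with a median of 0.10. *Mtr* (0.32), which joins the folate and methionine cycles, and *Ahcyl2* (0.28) were among those higher in dorsal DG. *Shmt1*, a folate enzyme, was higher in ventral DG (-0.25) and fell by 0.31 with EE (SE 0.069, edgeR adjusted p = 0.016), from 4.85 to 3.68 CPM in dorsal and from 5.45 to 4.64 CPM in ventral DG on average.

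Of 8 Tet cofactors, 2 were dorsal-higher and 4 ventral-higher, where all tested genes had 29% and 29.3%, with a median of -0.10. *Idh1* (-0.51) and *Idh2* (-0.26), which make the oxoglutarate that Tet enzymes use, and *Cxxc4* (-0.29) were higher in ventral DG, and *Cxxc5* (0.33) in dorsal DG. *Idh1* had 42.8 to 48.1 CPM in dorsal and 62.8 to 66.9 CPM in ventral samples.

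Downstream of oxidation, 5 of 12 tested deamination and base excision repair genes were dorsal-higher and 1 was ventral-higher, against 29% and 29.3% of all tested genes, with a median of 0.11. *Mbd4*, a second glycosylase that acts on mismatched thymine, differed most at 0.77 (SE 0.053, edgeR adjusted p = 3.41e-11), with 10.1 to 12.4 CPM in dorsal and 5.92 to 7.38 CPM in ventral samples. *Ung* (0.44) and *Parp1* (0.35) were higher in dorsal DG, and *Polb* (-0.34), the repair polymerase, was higher in ventral DG. Of 6 Gadd45 partners, 4 were dorsal-higher and 1 ventral-higher, again beside 29% and 29.3%, with a median of 0.14, led by the kinase *Map3k4* (0.49). *Mapk14* (0.16) was higher in dorsal and *Ing1* (-0.16) in ventral DG. *Cdkn1a*, an inhibitor of the cell cycle, was higher in dorsal DG (0.36) and rose by 0.46 with EE as the mean of both regions (SE 0.098, edgeR adjusted p = 0.0128). Across the 5 lists, *Shmt1* and *Cdkn1a* were the genes called for housing as the mean of both regions, and 0 were called within a region.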

How the data were processed

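RNA-Seq libraries of 20 samples were used, in 4 groups that the labels give by region and housing, and the 40 libraries of bisulfite and TAB sequencing were not analysed here. The authors trimmed reads with Trim Galore 0.4.0 and aligned them to mm10 (GRCm38) with STAR 2.5.1b, per the labels and methods, and deposited raw counts per gene. The authors also deposited expected counts (estimated counts), TPM, FPKM and transcript length, for which the labels name RSEM 1.2.30. Counts on the reverse strand, which held 95.5% to 96.5% of stranded counts, were tested as deposited, and expected counts were rounded for one alternative. Of all fragments, 32.6% to 40.9% were not counted on genes and were left out of library sizes. Symbols and coordinates came from Gencode vM21, and 45968 of 46480 genes had a symbol.

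edgeR 4.0.16 (R 4.3.3) fitted the 4 groups of 18 samples in one quasi-likelihood model with TMM scaling, over genes that exceeded 10 counts in 2 or more samples, with Benjamini-Hochberg adjustment. Standard errors were derived from each fold change and the F of its test. Intervals are 95% intervals of these fits. The region result is a contrast with 1 degree of freedom. The replicate number of the left-out SH sample is not given in the sources used here, and replicate 3 was taken from its *Xist* counts. Replicates of a group came from separate pools of mice. Dorsal and ventral samples were paired into pools by replicate number, which the labels do not tie to the mice. The correlation of their deviations from group means was -0.077 to 0.17 over the 9 pools. No replicate pair agreed within sampling noise (chi-square per degree of freedom 2.29 or more). Levels between genes used FPKM in place of the TPM first planned, with TPM beside it. Near-copies were found with BLAST at 90% identity or more over at least 100 bases. Other tools were DESeq2 1.42.0, limma 3.58.1, python 3.11.15, numpy 2.4.6, pandas 2.3.3 and matplotlib 3.10.9. A simpler fit of 2 groups was tested on simulated data. That test did not cover the fit of 4 groups, shared pools or changes in genes with low counts, and no result here rests on it.

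All 10 members are named. From each other list at most 4 called genes with the largest differences are named, and for *Gadd45b*, *Gadd45g* and *Tdg* the 3 most correlated genes. A gene of the methyl donor list that this rule names is not reported here. Genes of the marker lists are named where a single gene was called or as examples, some of them chosen after their values were seen. The members and lists were chosen with earlier results of these data known. Alternatives were another test (likelihood ratio, DESeq2, limma on log2 with a pseudocount of 1), scaling, filter, counting, separate fits, the replicate block, all 20 samples and leaving out each pool.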

Additional observations from a re-analysis of the deposited data

How the results depend on the processing

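The regional calls of *Dnmt1*, *Tet2*, *Tet3*, *Gadd45a* and *Tdg* held in all 24 settings, and *Gadd45g* was called in 0 of 24. *Dnmt3a* lost its call with limma on log2(TPM + 1) (adjusted p = 0.0624) and on log2(FPKM + 1), *Gadd45b* with the former (adjusted p = 0.0796) and *Tet1* in a fit of EE samples alone (adjusted p = 0.0618). *Dnmt3b* also lost its call in the joint test of both housings (adjusted p = 0.0593) and in fits of SH or EE samples alone (adjusted p = 0.113 and 0.134). With a fold over 20%, limma on log2(TPM + 1) called 5 members by region. Between 8 and 9 members were called by region without one pool at a time, and between 6 and 8 with a fold over 20%.

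For EE in dorsal DG, DESeq2, the likelihood ratio test, no count filter, RLE size factors, over 50 counts in 4 samples and the replicate block each called 1 member, *Gadd45b*, also with a fold over 20%. For EE in ventral DG the same settings and all 20 samples called 1, also with a fold over 20%, except the replicate block, which called 2 (*Gadd45b* and *Gadd45g*). For the mean EE difference, 3 were called by the likelihood ratio test, DESeq2, over 50 counts in 4 samples and the replicate block (2 of them with a fold over 20%, and 3 under the block), 2 with all 20 samples, RLE size factors, no count filter, unstranded counts or expected counts, and 0 with limma on log2(TPM + 1), also with a fold over 20%. That scale moved the median of all genes by -0.17, -0.10 and -0.14 for EE in dorsal DG, in ventral DG and on average, and its *Gadd45b* mean difference was 0.15 (adjusted p = 0.25). On it 36.4% of the genes called for the mean EE difference were higher in EE, against 56.9% in the reported fit, and 78.7% of the genes called by region were higher in dorsal DG, against 49.7%. Limma on log2(FPKM + 1), where 45.4% of such EE calls were higher in EE, and counts of both regions summed per pool, both chosen after seeing the data, called 1 member each for the mean EE difference. Without one pool at a time, 0 to 1 members were called for EE in either region and 1 to 3 for the mean, also with a fold over 20%. The interaction had 0 calls in every setting. The replicate block used the pool for region and the replicate number for EE. Equal numbers in SH and EE mark no shared mice, and the correlations of their deviations were 0.0756 to 0.157. Blocking by pool left 9 members called by region. *Dnmt3b* was not tested with over 50 counts in 4 samples.

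Of the values that passed the test in neither setting, 83 changed sign, all between -0.29 and 0.29, and 57 of them are not reported above. For EE in dorsal DG, limma on log2(TPM + 1) gave *Gadd45a* -0.041, *Gadd45g* -0.075 and *Tdg* -0.29, and *Tdg* was -0.11 with limma on log2(FPKM + 1) and -0.013 with unstranded counts. For the mean EE difference, *Tet2* was 0.018 with all 20 samples and 0.0013 with both regions summed per pool, *Dnmt3a* was -0.10 and *Dnmt3b* 0.0062 with limma on log2(TPM + 1), and *Dnmt3b* was 0.039 with limma on log2(FPKM + 1). The change of the regional difference of *Tet1* with housing was 0.023 and 0.11 on those scales. Without one pool at a time, the mean EE difference ran from -0.029 to 0.023 for *Dnmt1*, -0.025 to 0.0076 for *Tet2* and -0.032 to 0.0049 for *Tdg*, the dorsal one of *Tdg* from -0.00073 to 0.039, and the difference of EE effects between regions of *Gadd45b* from -0.10 to 0.085. The causes of these changes were not tested. *Dnmt3b* had the fewest counts of the 10, 7 to 28 per sample.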
